A study of Mus musculus with 66 samples.

Results

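Stretches of protein-coding genes listed in H3K36me3 islands in most pools of mouse prefrontal cortex (PFC), and in H3K9me3 islands in fewer than 11 of 22, were collected from the deposited island lists. An island is a stretch of the genome in which a peak caller, SICER, found neighbouring 200-bp windows rich in reads. A region was a run of windows covered by listed islands in at least 16 of the 22 H3K36me3 lists, and it was kept when it lay on chromosomes 1 to 19, overlapped the body of a protein-coding gene and touched no window covered in 11 or more of the 22 H3K9me3 lists. The regions were thus chosen by their island coverage, in lists that were not filtered by significance. Below, free of H3K9me3 has the meaning of this rule. Of 19950 H3K36me3 regions, 1339 (6.71%) met the rule, and they covered 1.59 Mb of 42.9 Mb. The rule used which islands were listed, so the presence of islands at these regions is a description and was not tested.

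The PFC came from DBA/2J mice, an inbred strain, of both sexes. They received ethanol (25% w/v, 4 g/kg) or water by gavage on alternating pairs of days, from postnatal day (PND) 29 until PND 42, and were killed 24 h after that dose. Tissue of 3 mice with matching sex and treatment made up a pool, DNA of 8 technical immunoprecipitations of a pool was combined, and an input library of the same chromatin served as control. There were 5 male water, 6 male ethanol, 5 female water and 6 female ethanol H3K36me3 libraries. Whole tissue was used, so a change in the number of cells of a type and a change of the mark within a cell cannot be told apart. The p-values below measure the spread between pools, not between single mice.

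H3K36me3 is a tri-methylation of lysine 36 of histone H3, laid down by the methyltransferase SETD2, which travels with elongating RNA polymerase II. It therefore builds up over the bodies of transcribed genes, more towards the 3′ end than at the promoter. H3K9me3, on lysine 9 of the same histone, marks heterochromatin and silenced repeats.

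Most regions with the H3K36me3 island call were not of this kind. Of all autosomal regions, 89.7% overlapped H3K9me3 (16839 regions), 590 were free of H3K9me3 but lay outside protein-coding genes, and 1182 regions were on X or Y. At the edge of the rule, 367 gene-body regions reached exactly 16 lists, and 454 further runs reached 15 lists and were not included. At the other edge, 34 regions had a window in 10 H3K9me3 lists, and 44 regions were left out with a window in 11. There were 709 regions with no window in any H3K9me3 list, and 21 regions had a window listed in all 22 H3K36me3 lists.

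Many of the gene-body regions were built of short sequence units in tandem. The stretches of this kind printed first are from regions of high enrichment or of small p-value in the comparison of ethanol with water, chosen after their values were seen. All sequences are the GRCm38 reference (RefSeq assembly, C57BL/6J) on the plus strand, and the genome of the DBA/2J animals was not read. Capitals mark exact copies of the first repeat unit of the stretch.
Lyst intron, chr13:13754393-13754632, unit of 34 bases: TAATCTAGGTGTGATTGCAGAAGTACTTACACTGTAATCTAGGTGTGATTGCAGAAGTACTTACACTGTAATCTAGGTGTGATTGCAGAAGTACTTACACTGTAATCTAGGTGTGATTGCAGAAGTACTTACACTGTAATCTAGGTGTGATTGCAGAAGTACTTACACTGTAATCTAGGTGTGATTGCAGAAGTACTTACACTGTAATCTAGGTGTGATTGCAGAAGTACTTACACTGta
Pou6f1 intron, chr15:100584364-100584603, unit of 21 bases: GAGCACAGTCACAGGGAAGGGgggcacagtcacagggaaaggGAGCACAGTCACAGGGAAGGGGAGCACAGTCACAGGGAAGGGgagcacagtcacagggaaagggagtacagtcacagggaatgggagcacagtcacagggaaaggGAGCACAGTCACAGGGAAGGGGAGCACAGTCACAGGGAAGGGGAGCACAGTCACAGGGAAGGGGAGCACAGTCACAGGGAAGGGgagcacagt
Edem3 intron, chr1:151800225-151800464, unit of 35 bases: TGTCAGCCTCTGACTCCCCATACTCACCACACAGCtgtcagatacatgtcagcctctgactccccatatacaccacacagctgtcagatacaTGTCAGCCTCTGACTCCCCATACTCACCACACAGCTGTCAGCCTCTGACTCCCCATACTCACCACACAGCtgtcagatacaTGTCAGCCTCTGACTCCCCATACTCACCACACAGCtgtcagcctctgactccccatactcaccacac
Prkaa1 intron, chr15:5161044-5161323, unit of 46 bases: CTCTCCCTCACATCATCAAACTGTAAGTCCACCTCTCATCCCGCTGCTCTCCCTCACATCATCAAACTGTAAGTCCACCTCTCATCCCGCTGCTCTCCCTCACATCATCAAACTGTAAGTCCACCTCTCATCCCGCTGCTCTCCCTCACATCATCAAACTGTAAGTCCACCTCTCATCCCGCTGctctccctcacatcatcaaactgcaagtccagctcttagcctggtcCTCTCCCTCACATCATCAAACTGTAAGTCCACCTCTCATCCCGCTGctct
Arid4a intron, chr12:71090068-71090267, unit of 19 bases: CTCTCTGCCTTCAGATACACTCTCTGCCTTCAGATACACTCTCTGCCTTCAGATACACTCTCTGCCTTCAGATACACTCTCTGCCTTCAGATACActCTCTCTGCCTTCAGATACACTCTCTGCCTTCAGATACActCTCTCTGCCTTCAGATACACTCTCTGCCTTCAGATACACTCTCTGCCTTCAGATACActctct
Acap3 intron, chr4:155897401-155897600, unit of 24 bases: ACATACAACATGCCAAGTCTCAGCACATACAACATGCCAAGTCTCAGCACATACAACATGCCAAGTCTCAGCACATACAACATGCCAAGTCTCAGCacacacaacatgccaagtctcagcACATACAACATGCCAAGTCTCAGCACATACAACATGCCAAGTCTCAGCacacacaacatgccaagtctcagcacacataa

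A further 3 stretches show the dinucleotide repeats that were common in the regions. Capitals mark runs of 8 or more CA or TG units, which are the same repeat read on either strand.
Klhdc1 intron, chr12:69276146-69276385: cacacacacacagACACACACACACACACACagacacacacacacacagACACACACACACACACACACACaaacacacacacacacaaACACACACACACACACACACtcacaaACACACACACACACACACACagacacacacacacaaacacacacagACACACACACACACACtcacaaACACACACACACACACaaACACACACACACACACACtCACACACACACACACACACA
Dlg2 intron, chr7:91163099-91163298: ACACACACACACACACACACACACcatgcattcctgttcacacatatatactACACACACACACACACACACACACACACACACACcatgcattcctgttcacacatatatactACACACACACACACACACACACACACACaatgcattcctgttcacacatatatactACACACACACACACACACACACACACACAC
Bach2 intron, chr4:32356696-32356895: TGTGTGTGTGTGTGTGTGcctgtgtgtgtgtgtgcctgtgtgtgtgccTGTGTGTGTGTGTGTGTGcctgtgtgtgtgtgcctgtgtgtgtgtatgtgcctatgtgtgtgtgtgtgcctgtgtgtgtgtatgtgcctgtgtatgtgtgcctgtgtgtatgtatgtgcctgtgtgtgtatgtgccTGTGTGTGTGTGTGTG

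The last 2 stretches hold coding exons of genes with small p-values in females, and capitals mark the exon bases (206 in Chd4 and 74 in Tsc2). Tsc2 is read from the minus strand.
Chd4, chr6:125105143-125105382: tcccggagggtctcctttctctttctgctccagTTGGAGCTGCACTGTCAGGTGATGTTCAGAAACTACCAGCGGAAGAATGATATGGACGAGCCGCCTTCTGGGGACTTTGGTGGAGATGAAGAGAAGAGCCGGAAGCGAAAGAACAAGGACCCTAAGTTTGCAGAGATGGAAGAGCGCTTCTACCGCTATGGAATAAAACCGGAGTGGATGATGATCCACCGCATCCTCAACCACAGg
Tsc2, chr17:24625103-24625342: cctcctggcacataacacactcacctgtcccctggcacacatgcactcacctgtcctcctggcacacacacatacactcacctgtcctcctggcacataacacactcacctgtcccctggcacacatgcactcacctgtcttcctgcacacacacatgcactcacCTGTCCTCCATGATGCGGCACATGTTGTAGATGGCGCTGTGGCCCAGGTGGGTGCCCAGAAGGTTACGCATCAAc

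The repeats set the gene-body regions apart from ordinary gene-body sequence. Of the 7930 windows of 200 bp in the regions, 19.8% held a run of 8 or more CA or TG units, against 2.81% of all 4969743 windows of that length in protein-coding gene bodies. At least 50% of the window was tandem repeat in 15.9% of the windows of the regions and in 1.05% of all windows. Soft-masked bases, those written as repeats in the reference, made up 60.2% of the regions and 27.0% of all gene-body windows, whereas the G+C content was close (44.6% and 43.1%). Exon bases were fewer, at 4.70% in the regions and 9.31% in all windows. These shares describe the sequences and carry no test, and no site or cause was read from a repeat. Reads that map to several places were discarded before the islands were called, and how far this removed reads from repeats was not tested.

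**Figure D1:**
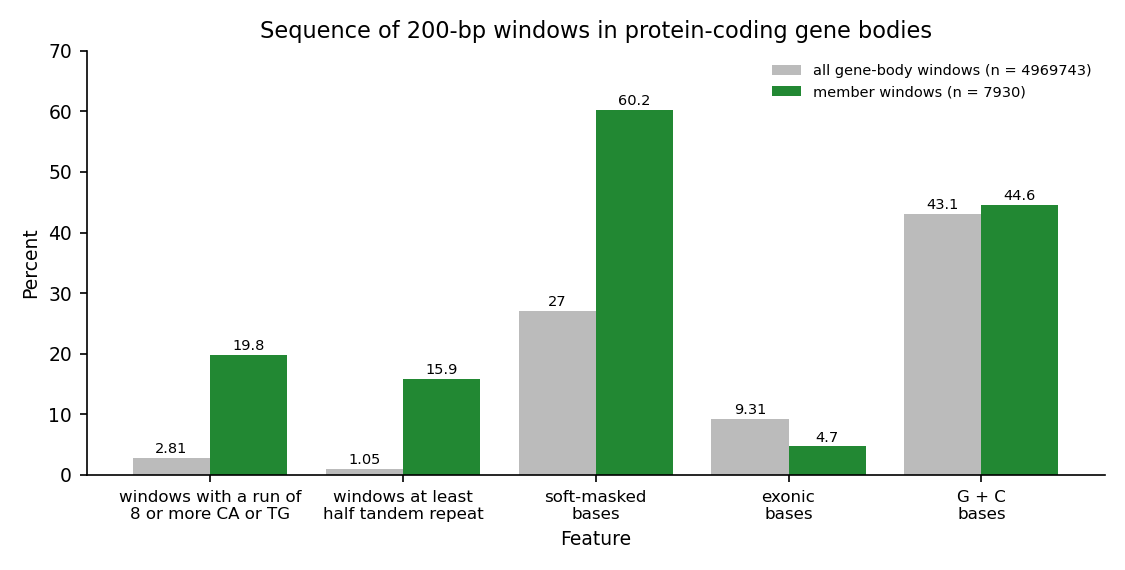
Share, in percent, of windows or bases with each sequence feature, for the 7930 windows of the H3K9me3-free gene-body regions and for all 4969743 gene-body windows of 200 bp. CA or TG runs are in 19.8% of the windows of the regions and in 2.81% of all windows.

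Counted by region, 779 of 1339 (58.2%) held a CA or TG run, 427 (31.9%) were at least 20% tandem repeat, and 492 (36.7%) had no tandem bases. Among the 427, the repeat unit had 2 bases in 50 regions, 3 to 6 bases in 48, 7 to 20 bases in 87, 21 to 40 bases in 154 and 41 to 60 bases in 88. Units of minisatellite size, 7 to 60 bases, thus made up 77.0%. The repeat-rich regions were not more enriched than the rest, since their median fold over input was 1.40 with at least 20% tandem repeat and 1.46 with none.

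The sequence features were shared with the regions outside genes and less with those that carry both marks. Intergenic regions free of H3K9me3 held a CA or TG run in 66.3% and were at least 20% tandem in 37.3%. In regions with both marks these shares were 5.89% and 4.89%, their median length was 2200 bp and the median G+C content was 37.9%, against 1000 bp and 44.5% in the gene-body regions.

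The regions were short. Their length ranged from 200 to 8000 bp with quartiles of 800 and 1600 bp, 34 regions were a single window, 182 were 2 kb or longer and 11 were 4 kb or longer. Enrichment is given as the fold of an island, the ratio of ChIP to input reads scaled to library size as SICER wrote it, taken as the median over the libraries that list the region. This fold ranged from 0.885 to 2.80 with a median of 1.45, and 21 regions had a median fold below 1 although their islands were listed. SICER also gives each island a false discovery rate (FDR). Islands with an FDR of at most 0.01 were present in a median of 11 lists per region, in 11 or more lists at 680 regions (50.8%), in none at 7 regions, and in all 22 lists at the Edem3 region alone.

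The number of lists with such an island fell into a broad spread with a mode at 5 lists (88 regions) and another at 16 lists (118 regions). The 680 well-supported regions were longer (median 1200 against 800 bp) and had a median fold of 1.71, against 1.22 in the other 659. Their input reads per kb, relative to the median region of each library, were lower (median 0.796 against 1.28), they touched an exon more often (27.2% against 6.53%), and their genes were shorter (median 44.7 against 117 kb). The share with at least 20% tandem repeat was 26.3% in the well-supported regions and 37.6% in the others. Fold and FDR come from the same islands as the rule, so these differences are descriptions.

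The regions sat inside genes rather than at their starts. Of 1339, 1328 lay wholly in one gene body, 1 contained a gene start and 8 (0.597%) were within 1 kb of one, and the median distance to the nearest start was 21.8 kb. No exon base was touched by 1111 regions (83.0%), and 43 were more than 50% exonic. Along the gene, divided into 10 equal bins from 5′ to 3′, the bins held the centres of 75, 120, 129, 125, 149, 162, 137, 162, 162 and 118 regions. Centres beyond a gene end were counted in the nearest bin. Among the 1329 regions with at least 50% of their length in 1 gene body, the first bin held 74 and the last 109. In these, 55.1% lay past the middle of the gene. The shares that follow include the centres beyond a gene end. The first bin held 5.60% of the regions, and 55.3% lay past the middle of the gene towards the 3′ end. In the well-supported regions these shares were 2.65% and 60%, and in the others 8.65% and 50.5%.

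**Figure D2:**
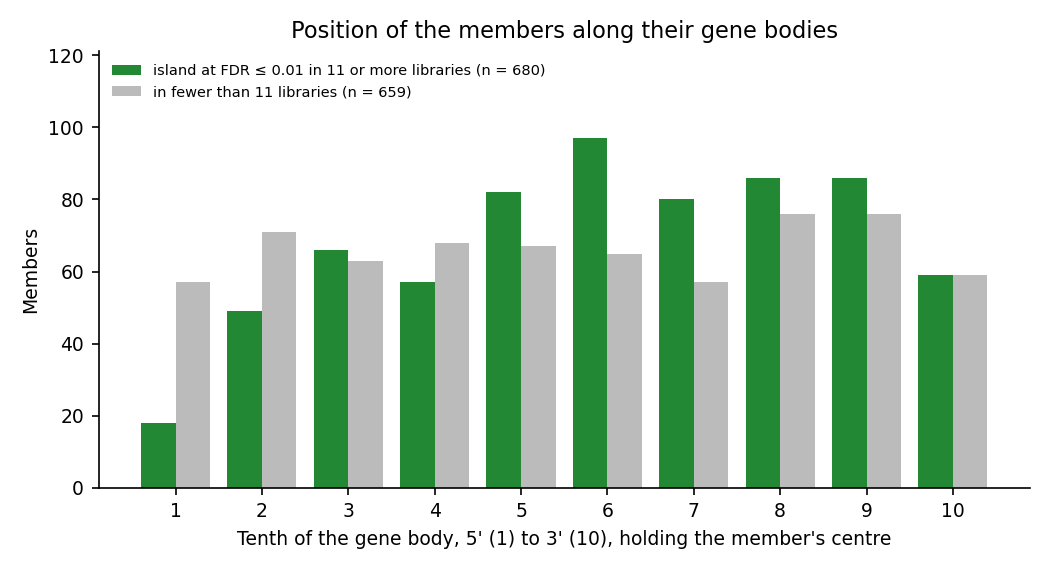
Number of regions whose centre fell in each of 10 equal bins of the gene body, from the 5′ end (1) to the 3′ end (10), for regions with an island of FDR at most 0.01 in 11 or more lists and in fewer. Centres beyond a gene end were counted in the nearest bin. The first bin held 18 of the 680 well-supported regions, and the sixth held 97.

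Long genes most often held at least 1 region, as a share of genes that was not divided by their length. Of 20807 protein-coding genes on chromosomes 1 to 19, 1140 (5.48%) overlapped a region. The share was 0.357% of genes under 10 kb (26 of 7287), 4.03% from 10 to 30 kb, 9.06% from 30 to 100 kb, 15.6% from 100 to 300 kb and 23.8% at 300 kb or more (129 of 541). For well-supported regions the share was 0.206, 2.67, 5.60, 6.12 and 4.44% in the same length classes, so that it no longer rose above 300 kb. When each region was given to the gene it overlaps most, 908 genes had 1 region, 149 had 2 and 36 had 3 or more.

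The longest regions were led by Alad, which encodes the heme synthesis enzyme delta-aminolevulinate dehydratase. Its region of 8000 bp (chr4:62509601-62517600) covered 74.4% of the gene body, had a median fold of 1.54 and an FDR island in 20 lists. Regions of 6600, 6200 and 5800 bp followed at 9030025P20Rik, Gm3435 and Ermard on chromosome 17. Each of these 3 had a G+C content of 43.8% and lay at a similar distance from the nearest gene start (3211, 3225 and 3264 bp), and the identity of their sequences was not computed. The next were Dhx30 (5400 bp), a mitochondrial RNA helicase, Arid4a (5200 bp), a chromatin protein that binds the retinoblastoma protein, and Gcc2 (5200 bp), a golgin of the trans-Golgi network. Gpatch1 (4200 bp), Chd4 (4000 bp), the ATPase of the NuRD remodelling complex, and Gtpbp4 (4000 bp), a ribosome assembly GTPase, closed the 10 longest.

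Among regions with an island in all 22 libraries, the highest median fold was at Edem3 (2.15), which acts in degradation of misfolded glycoproteins of the endoplasmic reticulum. The region (chr1:151800201-151802800) was 94.2% tandem repeat. It was followed by Prkaa1 (1.97), the catalytic alpha 1 subunit of AMP-activated protein kinase, whose region was 85.7% tandem repeat. Mia2, which acts at exit sites of the endoplasmic reticulum, had 1.82. Lower folds were found at Arid4a (1.69), Atp6v0a2 (1.66), Acad8 (1.63), Gcc2 (1.56), Alad (1.54) and Atp5f1 (1.53). Without the demand for all 22 libraries, the highest folds were at Lyst (2.80), the lysosomal trafficking regulator, Gnpat (2.80), an enzyme of ether lipid synthesis, and Pou6f1 (2.72), a POU transcription factor, which had islands in 20, 16 and 17 lists. The Lyst and Pou6f1 regions were 85.2 and 87.0% tandem repeat, whereas that of Gnpat had no tandem bases.

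By total length, Btbd9 held most (9200 bp in 4 regions), followed by Gm7247 (8800 bp in 8), Dnah8 (8600 bp in 8), an axonemal dynein heavy chain, Alad (8000 bp), Arid4a (8000 bp in 2), 9030025P20Rik (7600 bp in 2), Dhx30 (7400 bp in 2), Glo1 (7400 bp in 4), Kdm5a (7400 bp in 3), an H3K4 demethylase, and Gm3435 (7000 bp in 2). Btbd9, Dnah8 and Glo1 lie next to each other. The densest bin of 1 Mb in the genome was in this place, with 19 regions at chr17:30492001-30920000 in Btbd9, Glo1, Dnah8 and Glp1r. Their fold ranged from 0.937 to 1.66 with a median of 1.19, below the median of 1.496 in the 294 regions without tandem bases or CA or TG runs elsewhere. Their relative input had a median of 1.05, against 0.881 in those 294 and 1.01 over all 1339 regions.

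DBA/2J mice are known to carry an extra copy of the Glo1 segment and of the Alad segment, as background. At Alad, Hdhd3 and Pole3 (3 regions between chr4:62497601-62523600) the relative input had a median of 1.06 and the fold ranged from 0.931 to 1.54. At the 9 regions of 9030025P20Rik to Ermard (chr17:14970201-15050600), the medians were 1.05 for input and 1.24 for fold. The part of copy number in the islands of these segments was not tested. Elsewhere the regions were spread thinly: 750 bins of 1 Mb held a region, of which 438 held 1 and 31 held 5 or more.

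Lists of genes by function were set against the regions as counts, with no test between lists. Of 18 postsynaptic genes, 6 overlapped a region (33.3%), against 5.48% of all genes. Regions of 800 bp were found in 5 of them, namely Dlg2 (fold 1.40) and Dlg4 (2.32), scaffolds of the postsynaptic density, Dlgap1 (1.42), which binds them, Camk2g (1.59), a calcium/calmodulin-dependent kinase, and Agap2 (1.70). Of 21 presynaptic genes, 5 overlapped one (23.8%), including the syntaxin Stx1a (1.48), the liprin Ppfia2 (1.44) and the calcium sensor Syt1 (0.991). Glutamate receptor genes had 7 of 23 (30.4%), with folds of 1.09 at Grin2a, 1.22 and 1.42 at Grm4, 1.16 at Grik1 and 0.952 and 1.03 at Gria1.

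The lists differ in gene length, and long genes held regions more often, as given above. With well-supported regions alone, the counts were 4 of 18 postsynaptic genes (22.2%), 3 of 21 presynaptic genes (14.3%) and 1 of 23 glutamate receptor genes (4.35%), against 2.85% of all genes. The glutamate receptor gene was Grik5, a kainate receptor subunit, with a fold of 2.14 in 16 lists, and it is named because it was the whole count. Potassium channel genes had 3 of 24 (Kcnj6, Kcnh1 and Kcnma1), none of them well supported.

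Of 12 GABA-A receptor genes, 19 oligodendrocyte and myelin genes and 26 genes of other tissues, 0 overlapped a region. At the share over all genes, lists of this length would hold few genes or none, so these counts do not set the lists apart from the rest. Of 15 astrocyte, microglia and endothelial genes, only the endothelial receptor Flt1 did. Neuron markers had 3 of 12 (25.0%): Rbfox3 with folds of 1.02 and 1.098, Syt1, and the neurofilament gene Nefm with 2.01. Widely expressed genes had 2 of 29 (6.90%), Polr2a (1.79), the largest subunit of RNA polymerase II, and Supt5 (2.03), an elongation factor. With well-supported regions alone, 1 of 12 neuron markers (8.33%) and 2 of 29 widely expressed genes (6.90%) overlapped one, against 2.85% of all genes. No gene of 8 that write H3K36 methylation held a region, and a list of this length would hold few or none at the share over all genes. Among 15 readers and erasers, 2 (13.3%) held 1 region each. They were Kdm2a (1.51), an H3K36 demethylase, and Dnmt3a (2.10), a DNA methyltransferase that binds methylated H3K36. Of these only the region of Dnmt3a was well supported.

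Libraries differed widely in how much of these regions they listed, and this stands before the comparisons because part of it follows the groups. Between 1703000 and 4802640 ChIP reads lay in the listed islands of a library, with a median of 3827251. The share of the regions with an island was 90.5, 92.9, 95.2, 96.3 and 98.5% in the 5 male water libraries, and 40.5, 91.0, 93.3, 98.8 and 99.3% in the 5 female water libraries. It had a lowest, median and highest value of 17.9, 62.6 and 97.9% in the 6 male ethanol libraries, and of 60.5, 89.4 and 98.5% in the 6 female ethanol libraries.

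The 4 libraries that listed under 50% of the regions were male ethanol replicates 1 (17.9%), 4 (36.4%) and 6 (48.0%) and female water replicate 4 (40.5%). They held 3109, 6634, 8067 and 7848 reads in the regions per M reads of listed islands, against 15330 to 18067 in the male water libraries. Male ethanol replicates 2, 3 and 5 held 12575, 10759 and 15858. Since 3 of the 4 were male ethanol libraries and 0 were male water libraries, each comparison below is also given without them, a choice made after seeing the data.

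**Figure D3:**
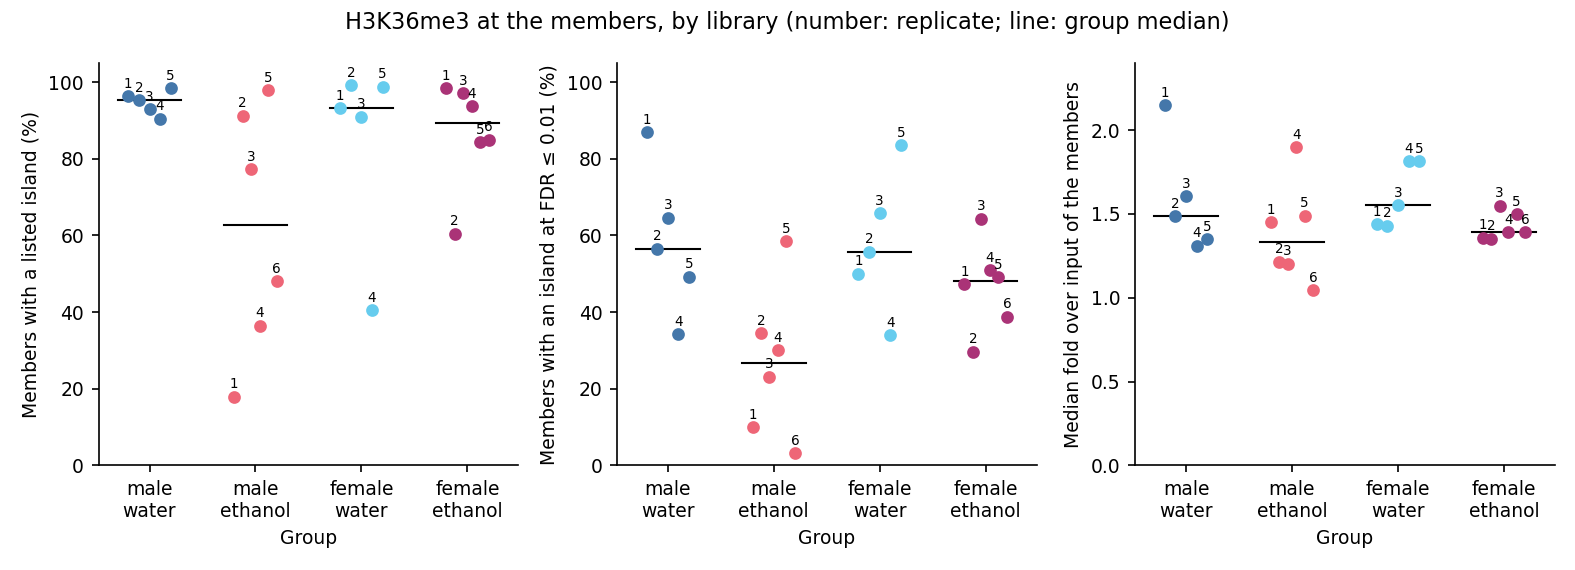
Percent of the regions with a listed island, percent with an island of FDR at most 0.01, and median fold over input, for each of the 22 libraries by group; numbers are replicates and lines group medians. Male ethanol replicates 1, 4 and 6 and female water replicate 4 listed 17.9 to 48.0% of the regions.

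The median fold over input, taken in each library over the regions it listed, was set against that of other kinds of H3K36me3 regions. It was higher than in intergenic regions free of H3K9me3 in 22 of 22 libraries, and higher than in regions with both marks in 21 of 22, the exception being male ethanol replicate 1 (1.45 against 1.47). The median fold of the regions was 1.31, 1.35, 1.49, 1.61 and 2.15 in the male water libraries and 1.43, 1.44, 1.55, 1.81 and 1.82 in the female water libraries. The lowest, median and highest values were 1.05, 1.33 and 1.90 in male ethanol and 1.35, 1.39 and 1.55 in female ethanol libraries. A library has a fold only where it listed an island, so that these values rest on different regions, with 1.90 coming from male ethanol replicate 4, which listed 36.4% of them, and ethanol and water were not compared on them. The share of regions with an FDR island did not follow the fold in every library. It was higher in regions with both marks than in the gene-body regions in 6 of 22 libraries, which were male ethanol replicates 1 (61.6 against 10.01%), 2 (38.3 against 34.4%), 3 (27.1 against 23.2%), 4 (46.8 against 30.1%) and 6 (5.43 against 3.21%) and female water replicate 4 (36.6 against 33.9%). Over all 22 libraries the median fold was 1.44 in the regions, 1.204 in intergenic regions and 1.16 in regions with both marks. H3K9me3 lists covered 0.896 to 24.1% of the regions per library, and islands of FDR at most 0.01 covered 0 to 4.03%.

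**Figure D4:**
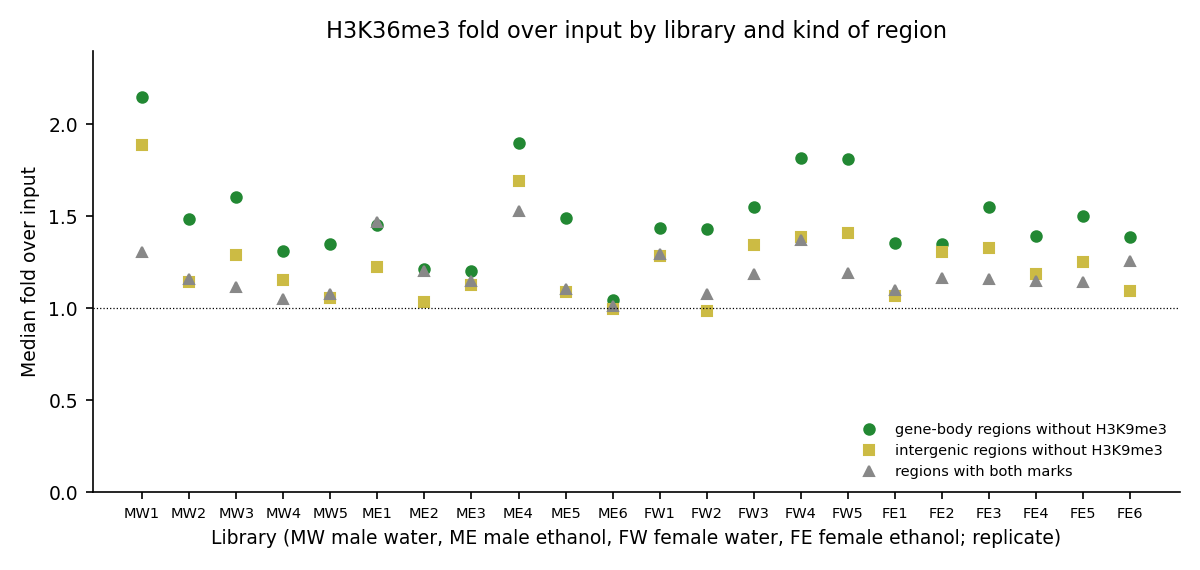
Median fold over input in each of the 22 H3K36me3 libraries for the H3K9me3-free gene-body regions, the intergenic regions free of H3K9me3 and the regions with both marks. The gene-body regions lie above the intergenic regions in 22 of 22 libraries.

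Ethanol was compared with water within each sex to ask where the mark changed 24 h after the last dose. The ChIP reads of an island were shared evenly over its length and given to each region by overlap. Counts are shown as CPM, counts per M reads assigned to the tested regions, scaled by the trimmed mean of M-values (TMM). The scale came from tested regions of every kind, 7502 in males and 8538 in females, of which 43 and 192 were the gene-body regions. A lower or higher CPM is thus relative to all tested regions. A region was tested with edgeR's quasi-likelihood test where each of the 11 libraries of that sex listed an island, so the regions missing from some libraries were not tested. The threshold was an unadjusted p of 0.05, as the study used, and values after Benjamini-Hochberg adjustment over all regions are given beside it. For single regions, log2 CPM of the 6 ethanol and 5 water libraries was also compared with a two-sided exact permutation test over all 462 splits, whose smallest p is 0.00433. The regions were picked by their edgeR p-value, so this p describes the same libraries and is no second line of support.

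In males, 10 gene-body regions were lower after ethanol at the unadjusted threshold and 0 were higher, out of 43 that could be tested among the 1339. Of the 43, 40 had a negative log2 fold change (48.8% of all 7502 tested regions did), with a median of −0.23 against 0.00 over all. Where 10 of 43 passed, all of them lower, 5.41% of all tested regions passed and 3.01% passed as lower. This depended on the scaling, since without TMM factors 2 of 43 passed, against 8.56% of all, and the median was −0.07 in the 43 and 0.17 over all regions. It also depended on the islands counted. With missing islands counted as 0, 6 of 1038 passed (1.38% of all), and with islands of FDR at most 0.01 only, 0 of 162 (0.0%). With all reads of an overlapping island 18 of 44 passed (6.69% of all), and with reads over input reads 20 of 44 (6.78%). After adjustment 0 of 43 and 0.0% of all regions passed with edgeR, and with DESeq2 10 of 43 passed unadjusted (5.73% of all) and 0 adjusted. The 43 are those listed in every male library, including the 3 that listed few, and 29 of them were well supported. As given above, most male ethanol libraries held fewer reads in the regions as a whole than the male water libraries. The 10 regions were not set apart from that shift, and its cause was not tested.

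The region of smallest p-value in males was in Klhdc1 (chr12:69275801-69277600), which encodes a kelch-domain protein, at the CA repeat printed above. Its CPM was 71.2, 75.3, 79.7, 87.9 and 99.9 in the water libraries and had a lowest, median and highest value of 29.8, 54.7 and 64.4 in the 6 ethanol libraries. Every ethanol library was below every water library, which was so in 2 of the 43 regions and in 0.467% of all tested regions. The log2 fold change was −0.70 (SE 0.17, edgeR's adjusted p = 0.592), and the exact permutation p = 0.00433. The input reads given to the region were lower in ethanol too, with a mean of 50.5 against 65.8. The log2 fold change was smaller in size with reads over input reads (−0.42) and without the libraries that listed few regions (−0.45), and it passed the threshold in both. With islands of FDR at most 0.01 only, 0.0% of all regions passed in males.

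In Nsrp1 (chr11:77045001-77046600), a splicing regulator of nuclear speckles, the region was wholly exonic and lay near the 3′ end of the gene. CPM was 45.9, 62.0, 62.3, 70.8 and 72.6 in water and 31.8, 43.4 and 47.7 in ethanol (lowest, median, highest). Apart from the lowest water library, the water values were above all ethanol values, and the log2 fold change was −0.54 (SE 0.14, edgeR's adjusted p = 0.666, exact permutation p = 0.0130).

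Hdhd3 (chr4:62497601-62500800) lies beside Alad in the segment described above. Water CPM was 63.3, 81.3, 87.8, 94.1 and 104, and ethanol CPM was 43.1, 50.5 and 92.0 (lowest, median, highest). A single ethanol library, replicate 5, reached the water range above its lowest value. Its log2 fold change was −0.60 (SE 0.19, edgeR's adjusted p = 0.759, exact permutation p = 0.0303), although the median fold over input was 1.13 in water and 1.04 in ethanol and only 4 lists had an FDR island. The threshold was not reached without TMM factors (−0.42), with all reads of an overlapping island (−0.33), with reads over input reads (−0.33) or in the region as drawn with a support of 20 lists (−0.15).

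Itsn2, an endocytic scaffold, had water CPM of 43.5, 52.8, 53.0, 62.3 and 68.5 and ethanol CPM of 34.6, 41.5 and 47.7, so that the groups overlapped only at the lowest water library. Its log2 fold change was −0.43 (SE 0.14, exact permutation p = 0.0130). Larger edgeR p-values were found at Arid4a, Glo1, Mia2 and Prkaa1. Their log2 fold changes were −0.53 at Arid4a (SE 0.21), −0.31 at Glo1 (SE 0.12), which encodes glyoxalase 1, −0.64 at Mia2 (SE 0.26) and −0.50 at Prkaa1 (SE 0.21). The exact permutation test gave 0.0303, 0.0476, 0.0130 and 0.0563 in the same order, so that Prkaa1 did not pass it at 0.05. The adjusted p of these 4 and of Itsn2 lay between 0.769 and 0.905 with edgeR. At Mia2 the ethanol values were 25.8, 77.98 and 112 against 101 to 124 in water, with replicates 1 (25.8) and 6 (41.9) lowest, both among the libraries that listed few of the regions. Without those libraries the log2 fold change was −0.23 at Arid4a, −0.18 at Mia2, −0.18 at Prkaa1 and −0.37 at Itsn2, and none of these 4 passed the threshold. Without TMM factors, Itsn2 (−0.26), Arid4a (−0.36), Glo1 (−0.13), Mia2 (−0.49) and Prkaa1 (−0.33) did not pass either.

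Input reads were on average lower in ethanol than in water at each of the male regions described above. The means were 40.3 against 46.8 at Nsrp1, 79.1 against 102 at Hdhd3, 44.4 against 51.4 at Itsn2, 111 against 140 at Arid4a, 69.3 against 74.3 at Glo1, 64.6 against 87.7 at Mia2 and 73.2 against 80.7 at Prkaa1. Islands also covered less of each of these regions in ethanol on average, and stretches outside an island received no reads in this count. Mean cover was 85.4 against 92.5% at Nsrp1, 88.5 against 98.5% at Arid4a and 79.6 against 100% at Mia2. At Hdhd3 the median cover was 62.5% in ethanol and 100% in water. The part of cover in the lower CPM and input reads was not tested. With reads over input reads the log2 fold change was −0.36 at Nsrp1, −0.34 at Arid4a and −0.38 at Mia2, each past the threshold, and −0.23 at Glo1, which did not pass.

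At Edem3, the region with most support, the log2 fold change was −0.51 (SE 0.24, exact permutation p = 0.0649), and at Alad it was −0.21 (SE 0.13, exact permutation p = 0.0952). Without the 3 male libraries that listed under 50% of the regions, 734 regions could be tested in males. Of these 61 passed the threshold, 57 of them lower, where 4.12% of all tested regions passed and 2.52% passed as lower. The median log2 fold change of the 734 was −0.12, of the same sign and smaller in size than in the 43, and 0 passed after adjustment.

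**Figure D5:**
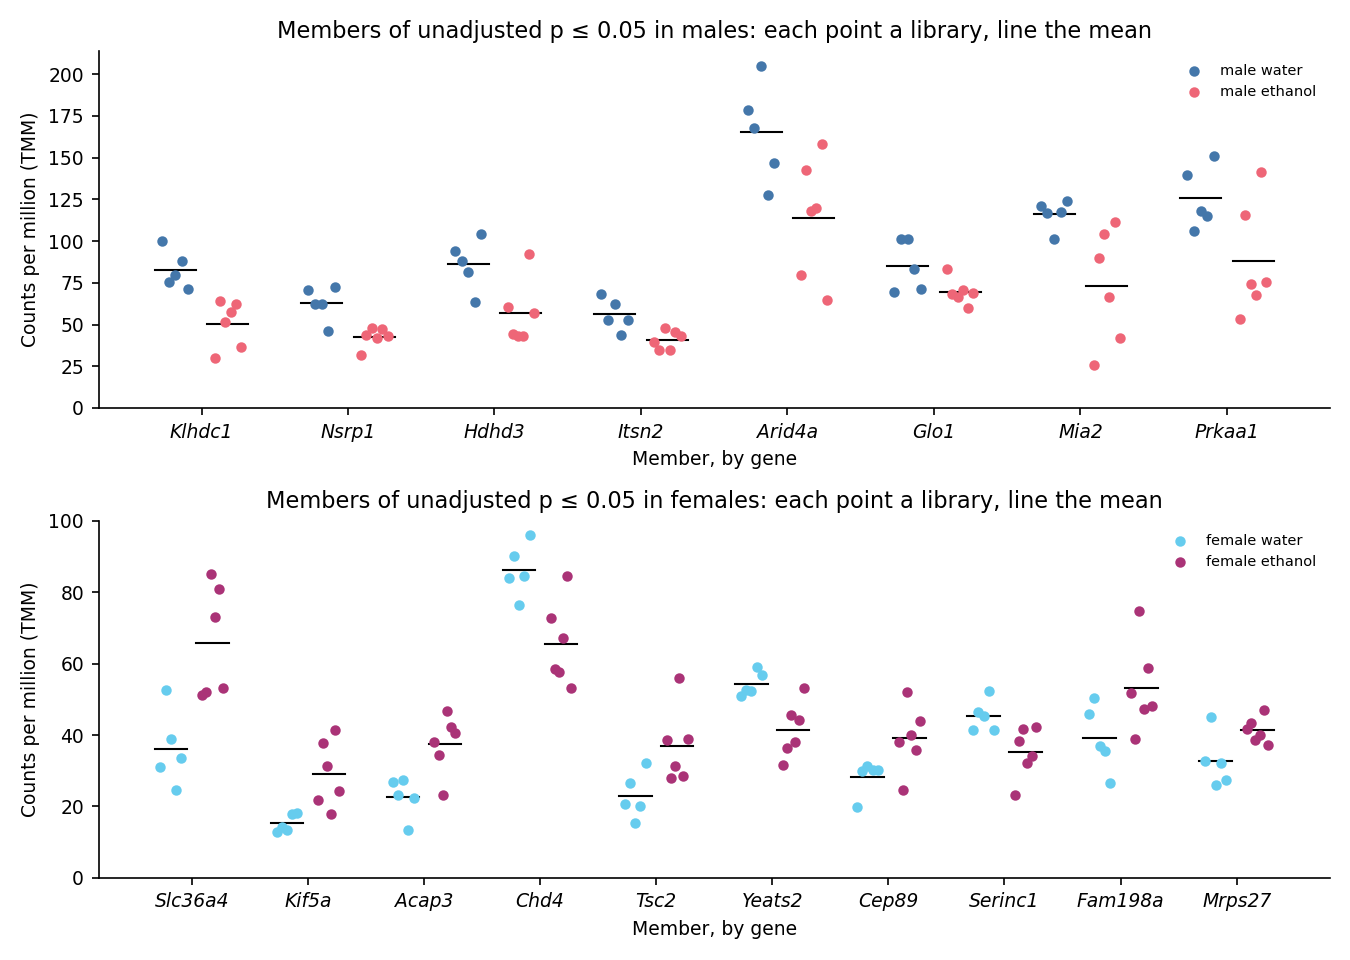
CPM (TMM-scaled) of the named regions at an unadjusted p of 0.05 or lower, by gene, in males and in females; each point is a library and lines are group means. In males the 6 ethanol libraries lie wholly below the 5 water libraries at Klhdc1.

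In females, 7 gene-body regions were higher and 3 lower after ethanol at the unadjusted threshold, and this split depended on how reads were counted. Of 192 gene-body regions tested, 107 had a negative log2 fold change (49.8% of all 8538 did), and the median was −0.02 against 0.00. Where 10 of 192 passed, 3.57% of all tested regions passed, 1.89% as higher and 1.69% as lower. The share of the regions, 5.21%, was not far above the background. With all reads of an overlapping island 14 of 192 passed, 0 of them higher (5.15% of all regions passed), and with reads over input reads 14 passed, 2 of them higher (4.92% of all). With reads over input reads, none of the 10 regions that passed in the first count did so. After adjustment 0 of 192 and 0.0% of all regions passed with edgeR, and DESeq2 gave 13 of 192 unadjusted (3.75% of all) and 0 adjusted.

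Of the 3 lower regions, Chd4 (chr6:125104401-125108400, the exon printed above) had CPM of 76.4, 83.9, 84.7, 90.03 and 95.9 in water and of 53.1, 62.8 and 84.6 (lowest, median, highest) in ethanol. All but 1 of the ethanol libraries were below the water range. The fitted log2 fold change was −0.40 (SE 0.12, edgeR's adjusted p = 0.991, exact permutation p = 0.0130), and fold over input had a median of 2.19 in water and 1.87 in ethanol. Yeats2, a reader of acylated lysines in the ATAC complex, had CPM of 51.0, 52.2, 52.5, 56.7 and 59.0 in water and of 31.7, 41.2 and 53.1 in ethanol, with a log2 fold change of −0.39 (SE 0.13, exact permutation p = 0.0173). Serinc1, a serine incorporator, had −0.36 (SE 0.15, exact permutation p = 0.0260).

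Of the 7 higher regions, Slc36a4 (chr9:15730601-15732000), an amino acid transporter, had CPM of 24.5, 31.1, 33.6, 38.9 and 52.5 in water and of 51.1, 63.1 and 85.1 in ethanol. Only 1 water library reached the ethanol range. Its log2 fold change was 0.83 (SE 0.20, edgeR's adjusted p = 0.991, exact permutation p = 0.0130). Kif5a (chr10:127242801-127243400), a neuronal kinesin heavy chain, had CPM of 12.97, 13.4, 14.3, 17.8 and 18.2 in water and of 17.8, 27.9 and 41.4 in ethanol, with a log2 fold change of 0.92 (SE 0.23, exact permutation p = 0.0130). The groups met only at 17.8 and 18.2.

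The other higher regions had log2 fold changes of 0.70 at Acap3 (SE 0.20), which activates the GTPase of Arf proteins, 0.68 at Tsc2 (SE 0.22), the tuberin of the mTOR pathway, 0.45 at Cep89 (SE 0.18), a centrosomal protein, 0.44 at Fam198a (SE 0.19) and 0.34 at Mrps27 (SE 0.15), a protein of the mitochondrial ribosome. The exact permutation test gave 0.0130, 0.0216, 0.0606, 0.0476 and 0.0346 in this order, and the adjusted p with edgeR was 0.991 at each. A region in Kcnab2, an auxiliary subunit of potassium channels, was the only one with ethanol wholly above water (44.1 CPM in the lowest ethanol and 43.4 in the highest water library). This was so in 0.223% of all tested regions, and its log2 fold change of 0.23 (SE 0.10) was just outside the edgeR threshold.

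Fold over input overlapped between ethanol and water libraries at the 4 higher regions of smallest p-value in females. The median fold in ethanol and water was 1.67 and 1.59 at Slc36a4, 2.01 and 1.99 at Kif5a, 2.44 and 2.11 at Acap3 and 1.64 and 2.02 at Tsc2. The input reads given to the region were higher in ethanol too, with a mean of 56.8 against 31.5 at Slc36a4, 20.0 against 11.01 at Kif5a, 23.7 against 15.8 at Acap3 and 32.7 against 15.3 at Tsc2. The islands that held these regions were shorter in ethanol, with a median of 1.4 against 4.4 kb at Slc36a4, 1.3 against 2.6 kb at Kif5a, 0.7 against 2.0 kb at Acap3 and 1.6 against 3.6 kb at Tsc2. When all reads of an overlapping island were counted, the sign turned at Slc36a4, Kif5a, Acap3, Tsc2 and Cep89. Without female water replicate 4, 467 regions were tested, of which 17 passed, 6 of them higher, where 3.52% of all tested regions passed and 1.87% passed as higher.

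Whether the response to ethanol differed between the sexes was tested as an interaction in the 21 gene-body regions with an island in all 22 libraries. Of these 1 passed the threshold, where 5.94% of all 5757 tested regions did and 2.73% were positive. It was Hdhd3, with a difference of log2 fold changes, female minus male, of 0.71 (SE 0.27, edgeR's adjusted p = 0.791). On the scale of this fit its CPM was 71.05 to 117 in male water, 48.0 to 103 in male ethanol, 44.99 to 104 in female water and 72.4 to 102 in female ethanol libraries. Arid4a (0.56, SE 0.28) did not pass. Adjusted, 0 of 21 and 0.0% of all regions passed. Hdhd3 did not pass without TMM factors (0.52), with all reads of an overlapping island (0.17), with reads over input reads (0.31) or with a support of 20 lists (0.45). DESeq2 gave 3 of 21 unadjusted (6.62% of all), and without the 4 libraries 17 of 337 regions passed with edgeR, 15 of them positive, where 4.39% of all passed and 2.29% were positive.

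Females and males, averaged over treatments, differed at 1 of the 21 regions, where 6.44% of all tested regions passed and 3.63% were higher in females. Cfap300, which encodes a protein of motile cilia, was higher in females by a log2 fold change of 0.36 (SE 0.15, edgeR's adjusted p = 0.656). Its CPM had a median of 60.4 in female water, 79.4 in female ethanol, 61.3 in male water and 57.7 in male ethanol libraries, and the water groups overlapped (55.9 to 83.7 in females and 43.3 to 79.8 in males). Cfap300 did not pass with all reads of an overlapping island (0.01), with reads over input reads (0.11), with a support of 11 lists (0.08) or without the 4 libraries (0.24). Mia2 (0.25, SE 0.16) did not pass. Adjusted, 0.591% of all regions passed, none of them among the 21, and without the 4 libraries 5 of 337 passed unadjusted, against 5.48% of all.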

How the data were processed

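ChIP-seq of H3K36me3 and H3K9me3 was done on pooled PFC, 22 pools per mark. Per the labels and the methods of the study, the authors trimmed reads with cutadapt, aligned them to GRCm38 (mm10) with Bowtie2 2.4.1 and discarded reads that were blacklisted or mapped to several places. SICER islands were then called per library with the input as control (window 200 bp and, for H3K36me3, gap 600 bp). These steps are stated for H3K9me3, and the labels name the same tools and build for both marks. The deposited lists give whole-number counts of ChIP and input reads per island, which the authors did not normalize. The authors' p-value and q-value (FDR) of an island compare its ChIP reads with scaled input reads, and the lists were not filtered on them. The authors' fold is the ChIP/input ratio of an island, scaled by a library constant. Reads outside islands were not analysed here, so depth is known only inside islands.

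Windows, regions and sequences were handled with Python 3.11.15, pandas 2.3.3 and pysam 0.24.0, and genes came from GENCODE for GRCm38. The fold of a region in a library was the mean of the fold of its islands weighted by overlap. Tandem repeat was called where 45 of 50 bases matched those one unit away, for units up to 60 bases. All regions entered one table, low counts were filtered and library sizes scaled with edgeR 4.0.16 (R 4.3.3), and the standard error was taken from the log2 fold change and the F statistic. Exact permutation tests of single regions were added after the values were seen. The scripts were tested on simulated data. DESeq2 1.42.0 and limma 3.58.1, the latter for reads over input reads with 0.5 added, were alternatives, with other scalings, filters, supports and left-out libraries. A replicate block was an alternative, since replicate numbers are shared by the groups.

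The regions and gene lists were chosen with earlier results of these data known. Named were the up to 10 regions of smallest p-value at the threshold in each sex, the 3 of smallest p-value for interaction and sex, the 10 longest, the 10 of highest fold with an island in all 22 libraries, the 10 genes with most bases, and 2 to 4 genes of each list with most bases, ties included. Lyst, Gnpat, Pou6f1, Bach2, Grik5, Kcnab2, Edem3 and Alad in the male comparison, and the stretches printed were named after their values were seen. Some regions and genes that met these rules are not reported here.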

Additional observations from a re-analysis of the deposited data

Results flagged for a closer look

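In 56 groups of 5 or 6 libraries, the highest or lowest library was checked for a gap from the others above the critical value of Dixon's test at 95%, and 6 groups had one. Chance flags about 1 in 20 groups. For the share of the H3K9me3-free gene-body regions with an island, the libraries apart from their group were female water replicate 4 (40.5%) and female ethanol replicate 2 (60.5%). Female ethanol replicate 2 was also apart in its reads in the regions per M listed reads, at 8449. In single regions, male ethanol replicate 1 was lowest at Nsrp1 (31.8 CPM), male ethanol replicate 5 was highest at Hdhd3 (92.0 CPM), and female water replicate 1 was lowest at Cep89 (19.9 CPM). Without female ethanol replicate 2, 18 of 307 regions passed the unadjusted threshold in females, where 4.14% of all tested regions did.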

How the results depend on the processing

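At the unadjusted threshold, the number of regions lower or higher after ethanol in males (10 of 43) became 2 of 43 without TMM factors (8.56% of all tested regions passed), 6 of 1038 with missing islands counted as 0 (1.38%), 0 of 162 with islands of FDR at most 0.01 only (0.0%), 18 of 44 with all reads of an overlapping island (6.69%), 20 of 44 with reads over input reads (6.78%) and 61 of 734 without the 4 libraries that listed few regions (4.12%). Without TMM factors the median log2 fold change of all male regions moved to 0.17. Leaving out each library gave 7 to 27, with 27 of 161 without male ethanol replicate 1 (4.50% of all) and 16 of 43 without male ethanol replicate 5 (6.39%). In females (10 of 192, 7 higher) the count was 14 with all reads of an overlapping island (0 higher, 5.15% of all), 14 with reads over input reads (2 higher, 4.92%), 3 of 1270 with missing islands as 0 (1.15%), 0 of 456 with FDR islands only (0.0%) and 17 of 467 without the 4 libraries (3.52%). It was 9 to 18 with each library left out, with 17 of 209 without water replicate 1 (3.74% of all), 17 of 467 without water replicate 4 (3.52%), 17 of 206 without ethanol replicate 6 (3.73%), 15 of 194 without water replicate 5 (3.37%) and 18 of 307 without ethanol replicate 2 (4.14%). The interaction (1 of 21) gave 3 with DESeq2 (6.62% of all), 0 without TMM factors (7.94%), 3 with the library size of all listed islands (3.18%), 3 of 1306 with missing islands as 0 (1.246%), 0 of 257 with FDR islands only (0.0%), 17 of 337 without the 4 libraries (4.39%), and 1 to 9 with each library left out (9 of 65 without male ethanol replicate 1, 5.33% of all, and 7 of 21 without male ethanol replicate 5, 6.55%). The sex comparison (1 of 21) gave 0 with the library size of all listed islands (6.27% of all), FDR islands only (1.51%), all reads of an island (6.77%), reads over input (4.10%), a support of 11 lists (6.06%), or regions under 5 H3K9me3 lists (6.44%), 2 of 22 with a support of 20 lists (5.78%), 5 of 337 without the 4 libraries (5.48%), and 0 to 4 with each library left out (4 of 21 without male ethanol replicate 5, 6.76% of all). The number of regions was 305 with FDR islands only, 3968 with a support of 11 lists and 243 with 20. With a replicate block, 9 of 43 regions passed in males (5.12% of all), 14 of 192 in females (3.49%), 4 of 21 for the interaction (6.496%) and 1 of 21 for sex (6.39%). Pools of the same number and sex showed little shared deviation over the tested regions (correlations of −0.10 to 0.08). Female 1 was the only pool that correlated best with its own number. Whether the numbers reflect shared handling was not tested, and the labels do not say. Among 26 named log2 fold changes, 277 values under alternatives held 181 with the same direction and side of the threshold, 86 that fell below it, 3 that rose above it and 7 of opposite sign. With all reads of an overlapping island these were −0.41 at Slc36a4, −0.47 at Kif5a, −0.33 at Acap3, −0.54 at Tsc2 and −0.33 at Cep89. Tsc2 was −0.31 with reads over input and Cep89 was −0.19 with a support of 11 lists. Islands holding the first 4 were longer in water, as given above, and the cause of the sign changes was not tested. The p at Klhdc1, Nsrp1, Hdhd3, Itsn2, Slc36a4, Kif5a, Acap3, Chd4, Tsc2 and Yeats2 stayed at or under 0.05 in 11 of 11 fits without a library, at Arid4a in 10, at Mia2 and Cep89 in 9, at Glo1 in 8, at Serinc1 and Fam198a in 6, at Prkaa1 in 5 and at Mrps27 in 3. With FDR islands only, the median fold of 11 of 22 libraries moved by over 1 SD. Few reads per region limit what a single region can show, and regions lost from a list were not tested.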

Other observations

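Zinc finger genes with a Zfp symbol, a family known for H3K9me3 over its 3′ exons, were looked at after the values were seen. Of 385 on chromosomes 1 to 19, 19 (4.94%) overlapped a region, against 5.48% of all protein-coding genes. Their 21 regions had a median fold of 1.81, 10 of them had no window in any H3K9me3 list, and 7 touched an exon.

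Outside the segments described, the densest bin of 1 Mb was on chromosome 7 from 27 Mb, with 10 regions in 2310022A10Rik, Pld3, Shkbp1, Sptbn4, Zfp59, Zfp60 and Zfp780b (median fold 1.65). The bin on chromosome 10 from 127 Mb held 9 regions, in Agap2, Eef1akmt3, Kif5a, Lrp1, Os9, Pip4k2c and R3hdm2, with a median fold of 1.82. In both, the relative input was below 1 (0.780 and 0.870).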
